A study of Mus musculus with 12 samples.

Results

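Signal transducers and activators of transcription (STATs) carry cytokine signals from receptor to gene, and the SOCS family, which includes Cish, switches those signals off. The 9 genes described here are Stat2, Stat3, Stat4, Stat5a, Stat5b and Stat6, which encode transcription factors, and Cish, Socs1 and Socs3, which encode feedback inhibitors. They were taken by name from 21900 protein-coding genes of the mouse, and all 9 were found in the annotation. H3K79me2, the dimethyl mark on lysine 79 of histone H3 written by the methyltransferase DOT1L, was mapped over them by chromatin immunoprecipitation and sequencing.

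The cells were CD8 T cells of male mice, activated through CD3 and CD28 and grown to day 8 with SGC-0946, EPZ-5676 or 0.1% DMSO as vehicle. SGC-0946 and EPZ-5676 are inhibitors that take the place of the methyl donor in DOT1L, and EPZ-5676 also bears the name pinometostat. The dose of each is labelled 10 mM, a doubtful unit, as such compounds are used on cells at micromolar concentrations. Mice of all 3 treatments had the same labelled strain, CreERT2;DOT1L-flox;OT-I, and genotype, wt;wt;het. Read in that order, the cells had no Cre transgene, normal Dot1l alleles and 1 copy of OT-I, a transgenic T cell receptor specific for an ovalbumin peptide. Yeast chromatin was added to every sample as an external reference. Each treatment had 2 biological replicates, and its values come from 1 deposited list of broad peaks, so no spread between replicates can be given and no test was possible.

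The SGC, EPZ and DMSO lists held 55, 4443 and 12578 peaks. A gene counted as marked if a peak touched its interval, which in the annotation spans all transcripts, by 1 base or more. A gene without a peak is one where none was called, and fewer cells with the mark cannot be told apart from less mark per cell. Fold enrichment is the authors' value over background, averaged over a peak, and is used to describe a peak within its own list. The sequencing depth behind each list is unknown. The labelled cell type was checked against 21 marker genes. All 6 genes listed as CD8 T cell markers had a DMSO peak. Of these Cd8a and Cd8b1 encode CD8, whereas Cd3d, Cd3e, Cd3g and Lck are not particular to CD8 T cells. None of the 3 CD4 T cell, 5 myeloid or 2 NK cell markers had one. Of the 5 B cell markers Cd79a had one, over 254 bases.

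In cytokine signalling, a receptor bound by its ligand brings Janus kinases (JAKs) together. These phosphorylate the receptor and then the STATs, which pair up, enter the nucleus and bind gene regulatory sites. In CD8 T cells, interleukin-2, interleukin-7 and interleukin-15 act largely through STAT5, interleukin-12 through STAT4 and type I interferon through STAT2, among others. CISH, SOCS1 and SOCS3 are induced by STATs and bind receptors or JAKs, which closes a negative feedback loop. H3K79me2 lies over the transcribed part of active genes, mainly the stretch that follows the start.

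No STAT or SOCS gene had a peak with SGC-0946, most had one with EPZ-5676 and all had one in vehicle. The counts were 0 of 9 in the SGC list, 7 of 9 in the EPZ list and 9 of 9 in the DMSO list. Of all protein-coding genes 0.142% had an SGC peak, 15.9% an EPZ peak and 34.5% a DMSO peak, and 46.1% of genes marked in DMSO had an EPZ peak. Stat2 and Stat5a were the 2 genes without an EPZ peak. Over the 9 gene intervals together, EPZ peaks covered 28.0 kb and DMSO peaks 118.5 kb, so that EPZ peak bases were 23.6% of DMSO peak bases. The whole lists covered 18.1 Mb in EPZ and 68.4 Mb in DMSO. With peaks of a −log10 q of at least 5 alone, 0 genes were marked in SGC (0.0228% of protein-coding genes), 5 in EPZ (7.68%) and 7 in DMSO (17.3%), and 44.1% of genes so marked in DMSO were in EPZ. Cish, Socs1 and Socs3 differed from the STAT genes in the share of DMSO peak bases under EPZ peaks. EPZ peaks lay over 100% of the DMSO peak bases within Cish and Socs1 and 74.9% within Socs3. Over the whole DMSO peaks, which extend past these short genes, the shares were 83.1% for Cish, 60.9% for Socs1 and 71.6% for Socs3. In Stat3, Stat4, Stat5b and Stat6 EPZ peaks lay over between 9.47% and 25.2% of the DMSO peak bases.

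**Figure D1:**
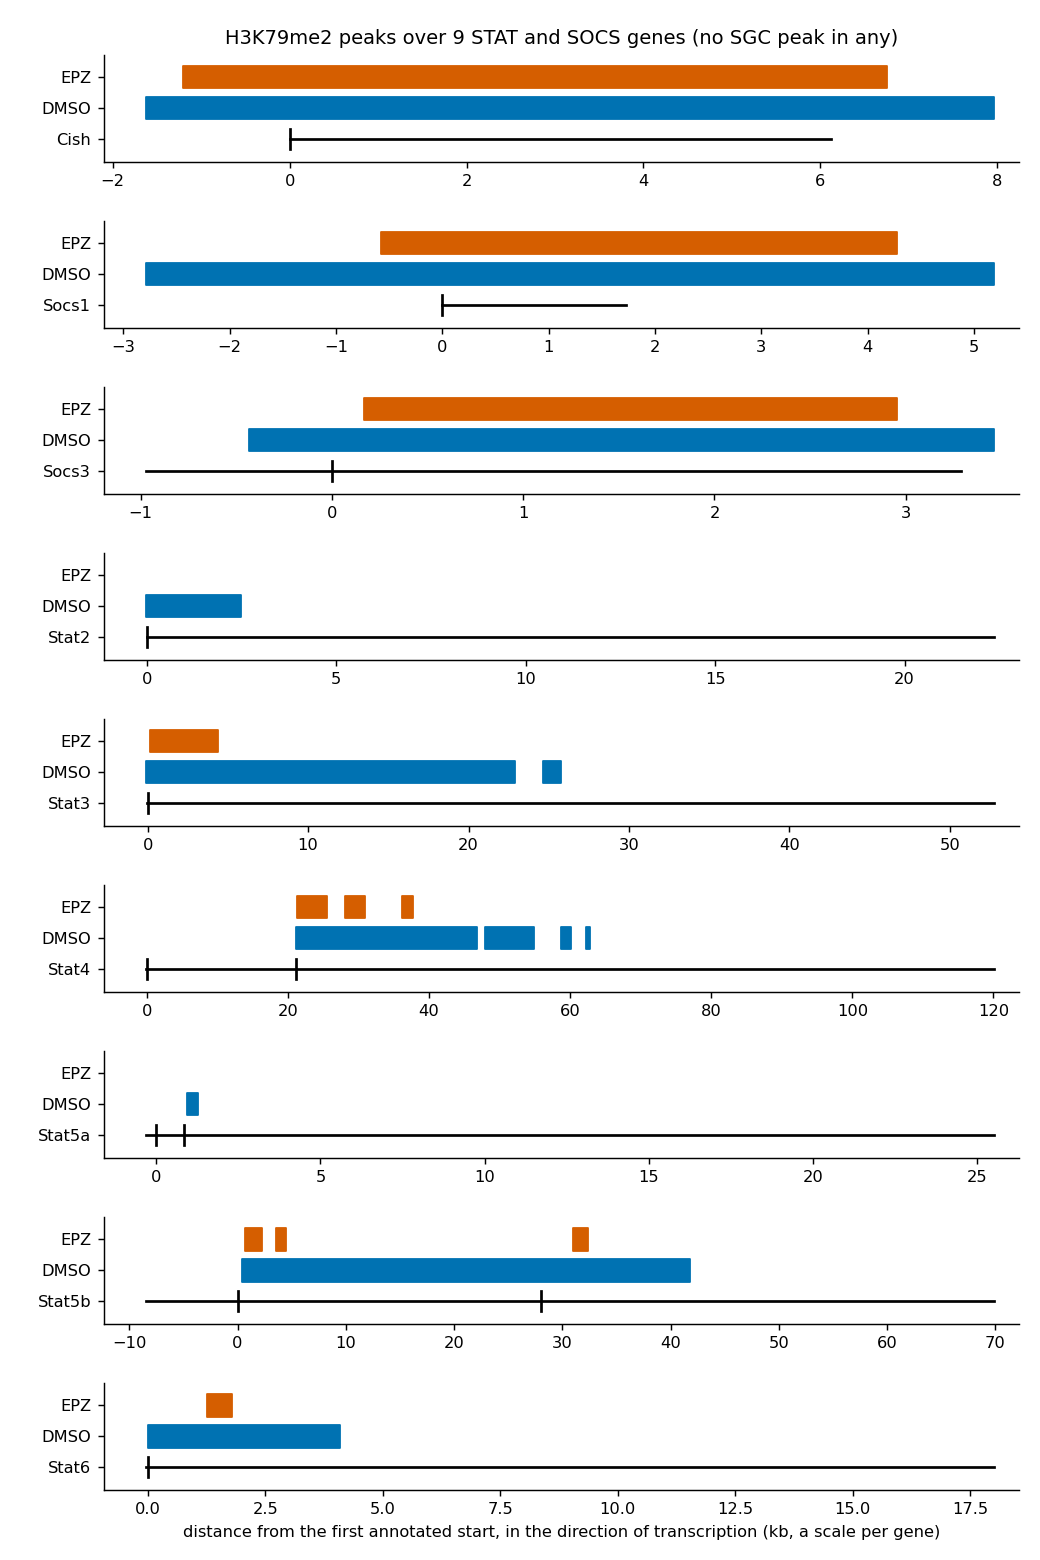
Peaks of the EPZ list (orange) and the DMSO list (blue) over each gene (black line, annotated starts as ticks), by distance from the first annotated start in kb, with a scale of its own for each gene. EPZ and DMSO peaks both span the whole of Cish and Socs1, whereas Stat2 and Stat5a show DMSO peaks alone.

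Cish, Socs1 and Socs3 are short and stood under some of the highest peaks of both lists. Cish encodes CIS, an inhibitor that acts on the receptors of interleukin-2 and on signalling downstream of the T cell receptor. It lies on the plus strand of chromosome 9 from 107296659 to 107302784, 6.13 kb in all, with all positions on GRCm38 (mm10). Its EPZ peak ran from 107295450 to 107303407, 7958 bases at a fold enrichment of 20.3 in the EPZ list. Its DMSO peak ran from 107295040 to 107304619, 9580 bases at 13.3 in the DMSO list. Counted from the start of the gene, the EPZ peak began at −1.21 kb and the DMSO peak at −1.62 kb, and both ended past the far end. By fold enrichment the Cish peak stood at percentile 99.4 of EPZ peaks and 99.8 of DMSO peaks, and ranks from lists of unequal length show no change between them.

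Socs1, an inhibitor of JAKs that restrains interferon-gamma and common gamma chain cytokine signals, lies on the minus strand of chromosome 16 from 10783808 to 10785536, 1.73 kb in all. Its EPZ peak spanned 4855 bases at 14.7 in the EPZ list, from 10781255 to 10786109. Its DMSO peak spanned 7971 bases at 11.5 in the DMSO list, from 10780349 to 10788319. The gene itself took up 1729 bases of each peak, and the remaining 3126 bases in EPZ and 6242 bases in DMSO lay outside it. Upstream of the start the EPZ peak reached −0.573 kb and the DMSO peak −2.78 kb. The DMSO peak also covered 385 bases of Tnp2, a sperm chromatin protein gene 2.40 kb away, and the EPZ peak did not reach it.

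Socs3, an inhibitor of signalling through gp130-type receptors and of interleukin-12 signalling, lies on the minus strand of chromosome 11 from 117966079 to 117970336. Its EPZ peak spanned 2788 bases at 8.08 in the EPZ list, all within the gene. Its DMSO peak spanned 3894 bases at 10.8 in the DMSO list, with 3721 of them in the gene. The annotated start fell inside the DMSO peak, which began at position −433, and outside the EPZ peak, which began 167 bases downstream. Within the EPZ list the Socs3 peak ranked at percentile 90.8, below those of Socs1 at 98.2 and Cish at 99.4.

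The promoters of the 3 inhibitor genes are shown because EPZ and DMSO peaks met them differently and because STATs bind at such promoters. Each window runs from 250 bases before the start to the 50 bases from the start on, read 5′ to 3′ on the gene's own strand, from RefSeq on GRCm38.p6. Capitals mark matches to TTCNNNGAA, the core sequence bound by STAT pairs, which reads the same on both strands. The windows are chr9:107296409-107296708 for Cish, chr16:10785487-10785786 for Socs1 and chr11:117969317-117969616 for Socs3.
Cish: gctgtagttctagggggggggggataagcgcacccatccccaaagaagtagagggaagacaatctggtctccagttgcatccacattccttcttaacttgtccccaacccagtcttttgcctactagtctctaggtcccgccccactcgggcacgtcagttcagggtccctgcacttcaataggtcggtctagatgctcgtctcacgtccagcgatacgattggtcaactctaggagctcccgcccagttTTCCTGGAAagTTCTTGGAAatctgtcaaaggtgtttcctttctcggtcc
Socs1: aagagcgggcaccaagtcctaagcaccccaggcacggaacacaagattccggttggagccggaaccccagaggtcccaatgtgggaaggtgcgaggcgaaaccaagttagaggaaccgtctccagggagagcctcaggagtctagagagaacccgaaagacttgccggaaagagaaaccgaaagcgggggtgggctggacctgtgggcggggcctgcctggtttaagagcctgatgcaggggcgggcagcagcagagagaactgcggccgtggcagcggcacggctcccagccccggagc
Socs3: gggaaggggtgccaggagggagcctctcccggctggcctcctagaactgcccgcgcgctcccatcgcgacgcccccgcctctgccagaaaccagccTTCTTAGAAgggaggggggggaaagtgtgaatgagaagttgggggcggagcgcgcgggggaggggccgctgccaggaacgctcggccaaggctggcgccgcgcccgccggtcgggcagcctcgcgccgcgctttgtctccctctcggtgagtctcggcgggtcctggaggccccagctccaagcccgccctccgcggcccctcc

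The Cish promoter held 2 matches, TTCCTGGAA at the start itself and TTCTTGGAA 11 bases on, and the Socs3 promoter held 1, TTCTTAGAA, whose first base lay at position −154 from the start. The Socs1 window held none. Of all 32851 listed promoters 8.30% held at least 1 match and 0.457% held 2 or more. Among the promoters of protein-coding genes with an EPZ peak the share with a match was 7.44%, and among those with a DMSO peak 7.18%. The same sequence with a spacer of 4 bases rather than 3, which STAT6 also binds, was found in 6.95% of all promoters and, of the 12 windows of the 9 genes, in that of Stat2. Letters that match do not show that a factor was bound. All 300 bases of the Cish and Socs1 windows lay under both the EPZ and the DMSO peak. Of the Socs3 window, 0 bases lay under the EPZ peak and 300 under the DMSO peak.

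The STAT genes are longer, had lower peaks, and had less of their DMSO peak length under EPZ peaks. Stat3, which acts downstream of interleukin-6, interleukin-10 and interleukin-21, lies on the minus strand of chromosome 11 from 100886806 to 100939594, 52.8 kb in all. Its EPZ list entry was a single peak of 4199 bases at 4.37, from 100935168 to 100939366. In DMSO a peak of 22982 bases at 5.69, from 100916637 to 100939618, was followed after a gap of 1.71 kb by one of 1171 bases at 2.88. The EPZ peak ended 4.37 kb past the start, whereas the DMSO peaks reached 25.8 kb. It lay over 17.4% of the DMSO peak bases in the gene, and the smaller DMSO peak had no EPZ peak on it.

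Stat4, the interleukin-12 transducer that favours interferon-gamma production, lies on the plus strand of chromosome 1 from 51987106 to 52107189. It is the longest of the 9 genes at 120.1 kb and has 2 annotated starts, 21.1 kb apart. The first 21.1 kb held no peak in any list. The widest DMSO peak, 25659 bases at 5.50, began at 52008268, which is 28 bases past the second start at 52008240. Smaller DMSO peaks of 6886, 1376 and 546 bases followed, at 3.26, 3.12 and 2.82, so that DMSO peaks covered 34.5 kb up to 41.7 kb past the second start.

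Within the widest DMSO peak of Stat4 the EPZ list had 3 peaks. They spanned 4230, 2851 and 1610 bases at 4.59, 3.34 and 2.99, with gaps of 2.53 and 5.17 kb between them. The first began 269 bases past the second start and the last ended 16.7 kb past it. Together they lay over 25.2% of the DMSO peak bases in Stat4, and none lay on the 3 smaller DMSO peaks. Fold enrichment decreased from peak to peak with distance from the second start, in the EPZ list and in the DMSO list.

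Stat6, the transducer of interleukin-4 and interleukin-13, lies on the plus strand of chromosome 10 from 127642955 to 127660987. It had 1 EPZ peak of 541 bases at 3.15 and 1 DMSO peak of 4099 bases at 5.77. The DMSO peak began at the start, with its edge at position −4, and ended 4.09 kb on. The EPZ peak lay inside this stretch, from 1.26 to 1.80 kb past the start, over 13.2% of the DMSO peak bases. The EPZ peak had a −log10 q of 1.95 in the EPZ list, and the DMSO peak one of 8.41 in the DMSO list.

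Stat2, which acts with IRF9 in the complex that type I interferon activates, had no EPZ peak. It lies on the plus strand of chromosome 10 from 128270498 to 128292853, and its DMSO peak of 2497 bases at 3.86 began at position −17 and ended 2.48 kb past it. It covered 11.1% of the 22.4 kb gene. Of this peak 770 bases also lay in Apof, a liver-expressed apolipoprotein gene whose interval overlaps that of Stat2 by 753 bases. The mark there cannot be given to 1 of the 2 genes from these lists.

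**Figure D2:**
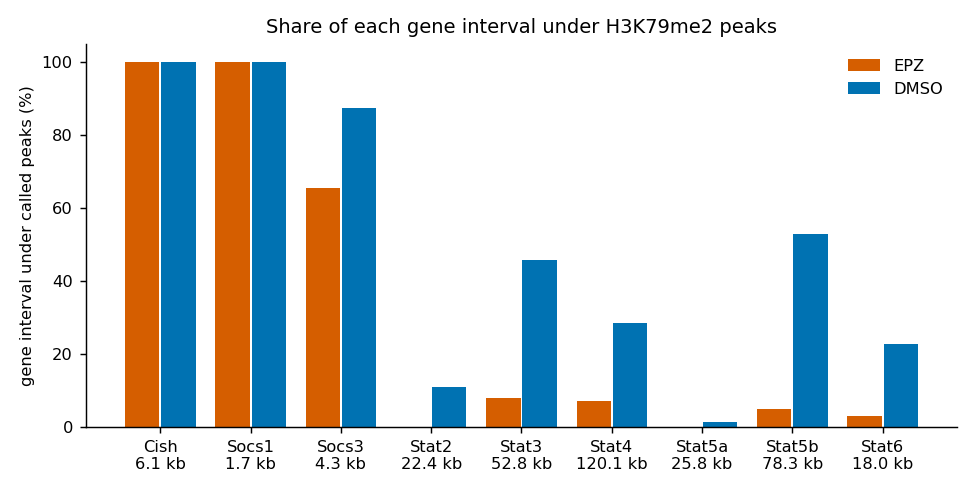
Percent of each gene interval under called peaks, EPZ bars (orange) left of DMSO bars (blue), with the gene's length under its name and no replicate error because each list is 1 pooled file. Cish and Socs1 are at 100% in both lists, and the 6 STAT genes are at 7.95% or less in EPZ and at 52.9% or less in DMSO.

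Stat5a and Stat5b encode closely related STAT5 proteins that transmit interleukin-2 family signals. Their gene intervals lie 0.346 kb apart on chromosome 11 and are read in opposite directions. The Stat5b interval begins 8.42 kb before its first listed start, and no peak of any list was called in that stretch. Peaks of Stat5a and Stat5b differed widely. Stat5b, on the minus strand from 100780731 to 100859004, had 1 DMSO peak of 41393 bases at 5.15, the widest over any of the 9 genes and at percentile 98.9 of DMSO peaks by width. Stat5a, on the plus strand from 100859351 to 100885169, had 1 DMSO peak of 357 bases at 2.79, which stood at percentile 4.84 by width. DMSO peaks thus covered 52.9% of the 78.3 kb Stat5b interval and 1.38% of the 25.8 kb Stat5a interval. The peaks called here come from reads placed on the genome, and how reads that fit both genes were treated is not given in the sources used here.

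With EPZ-5676 the stretch of the long Stat5b peak held 3 short ones, of 1604, 883 and 1433 bases at 3.45, 2.90 and 2.78. Of these 2 lay between 0.662 and 4.46 kb past the first start. The third lay 31.0 to 32.4 kb past the first start, which is 2.96 to 4.39 kb past the second annotated start, and 26.5 kb separated it from the nearer of the others. Together they lay over 9.47% of the DMSO peak bases, the lowest share among the 7 genes marked in both lists. Stat5a had no EPZ peak. All 3 Stat5b peaks had a −log10 q of 2.86 or less.

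**Figure D3:**
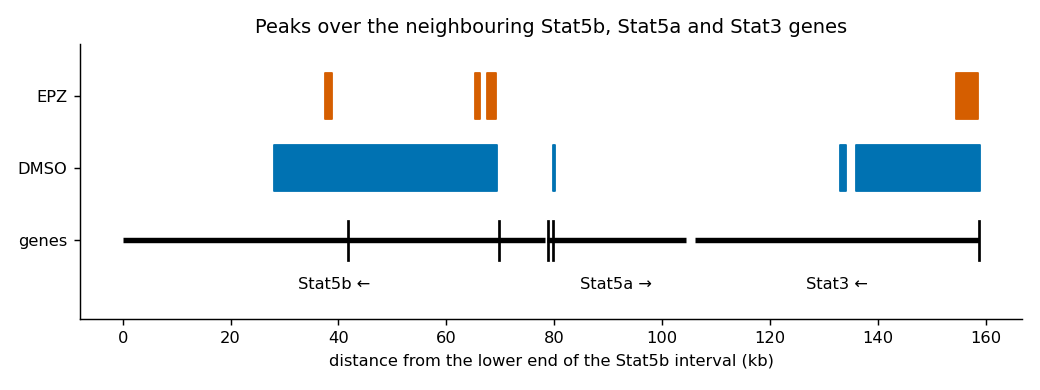
Peaks of the EPZ list (orange) and the DMSO list (blue) over 3 neighbouring genes, with arrows for the direction of transcription and ticks for annotated starts, by distance in kb from the lower end of the Stat5b interval. The 41.4 kb DMSO peak of Stat5b and the 23.0 kb DMSO peak of Stat3 flank Stat5a, where a peak of 0.357 kb was called in DMSO and none in EPZ.

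The promoters of this pair are shown because neither lay under a peak although a DMSO peak began just beyond each. The window of Stat5b is that of its first start, chr11:100850532-100850831 on the minus strand, and the window of Stat5a is that of its second start, chr11:100860234-100860533 on the plus strand, nearest to its peak. Both are in lower case throughout because neither spacing of the STAT motif was found.
Stat5b: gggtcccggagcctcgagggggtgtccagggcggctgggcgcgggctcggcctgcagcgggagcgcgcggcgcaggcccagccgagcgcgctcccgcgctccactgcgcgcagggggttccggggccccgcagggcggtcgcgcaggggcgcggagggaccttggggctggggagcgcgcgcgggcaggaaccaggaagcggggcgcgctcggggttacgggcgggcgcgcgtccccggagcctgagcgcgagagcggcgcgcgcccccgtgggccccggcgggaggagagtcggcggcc
Stat5a: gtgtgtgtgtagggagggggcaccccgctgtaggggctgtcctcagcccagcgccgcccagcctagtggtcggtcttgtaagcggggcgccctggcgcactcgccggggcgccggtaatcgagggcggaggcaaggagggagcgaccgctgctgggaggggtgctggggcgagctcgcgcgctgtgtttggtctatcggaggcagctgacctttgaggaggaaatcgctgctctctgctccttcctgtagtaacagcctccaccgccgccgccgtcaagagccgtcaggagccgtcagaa

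Of the 300 bases in each of these windows, 0 lay under an EPZ peak and 0 under a DMSO peak. The DMSO peak of Stat5b began 419 bases past its first start and that of Stat5a 98 bases past its second. The Stat5b window was 82.7% G and C with 50 CpG pairs and the Stat5a window 67.7% with 27. Over promoters of protein-coding genes with a DMSO peak the medians were 61.3% and 22. Whether base composition affected where the peaks began was not tested. The 12 windows of the 9 genes had a median G and C content of 58.5% and a median of 13 CpG pairs. The 2 Stat4 windows had the fewest CpG pairs, 2 at a G and C content of 50.7% and 4 at 46.0%.

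Position against the annotated starts varied among the genes. An annotated start lay inside an EPZ peak at 2 of the 7 genes marked in both lists, Cish and Socs1. A start lay inside a DMSO peak at 7 of the 9 genes. At Stat5b the start inside the DMSO peak was the second one. In the whole annotation 22.6% of 2831 genes marked in both lists had a start inside an EPZ peak and 44.2% of 6149 genes marked in DMSO had one inside a DMSO peak, counting genes with a listed promoter. In the other 5 genes marked in both lists the nearest EPZ peak edge lay between 167 bases (Socs3) and 1.26 kb (Stat6) past a start. All 11 EPZ peaks of the 9 genes lay wholly within a DMSO peak, as did 98.1% of all EPZ peaks, and 5 of the 11 had a −log10 q of at least 5. Of the 13 DMSO peaks 7 were touched by an EPZ peak (26.9% of all DMSO peaks), and those of Cish, Socs1 and Socs3 were covered over at least 50% of their bases (8.48% of all DMSO peaks). By fold enrichment the 7 stood at percentiles 80.7 to 99.8 of DMSO peaks and the rest at 63.5 or less. The shares of all DMSO peaks were not matched for fold enrichment or width. Over genes marked in both lists the farthest peak base within the gene lay a median of 3.36 kb past the first start in EPZ and 10.1 kb in DMSO.

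The DMSO signal of a gene went with its EPZ state in the annotation as a whole, and the 9 genes followed the same order. Genes marked in DMSO were put into deciles by their highest DMSO fold enrichment. The share with an EPZ peak ran from 0.264% in the lowest decile to 94.5% in the highest. Stat5a stood in the lowest decile and Stat2 in the fourth, where 11.6% had an EPZ peak. Stat4 and Stat5b stood in the seventh, where 78.7% had one, Stat3 and Stat6 in the eighth, at 87.4%, and Cish, Socs1 and Socs3 in the highest. Each of the 9 genes thus had the EPZ state that most genes of its decile had. Their median highest fold enrichment in DMSO was 5.69, against 4.47 over all genes marked in DMSO, and their median DMSO peak length in the gene was 4.10 kb, against 4.10 kb.

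**Figure D4:**
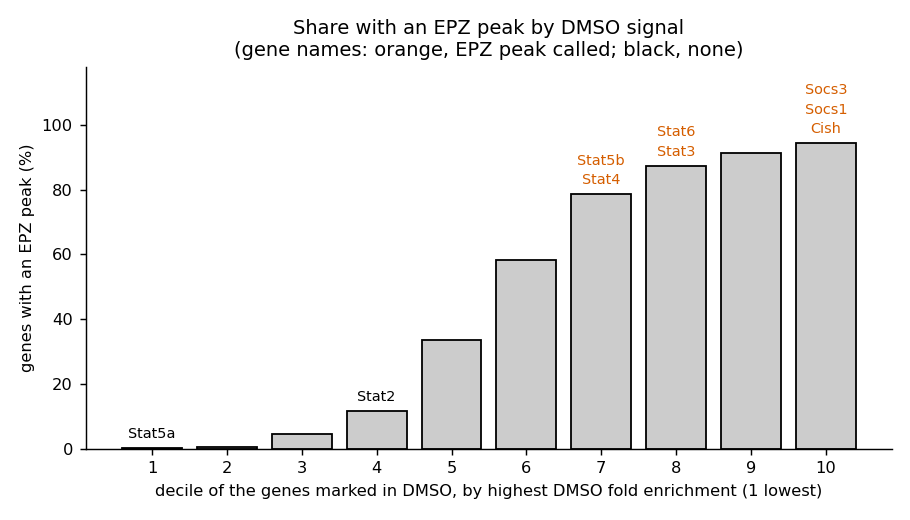
Percent of genes with an EPZ peak (bars) in each decile of the genes marked in DMSO, by highest DMSO fold enrichment, with the names of the 9 genes above their decile. Names in orange had an EPZ peak, and the 2 in black, Stat5a and Stat2, stand in deciles where 0.264% and 11.6% had one.

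The share of DMSO peak bases under EPZ peaks had a median of 25.2% over the 7 STAT and SOCS genes marked in both lists, against 34.3% (interquartile range 18.4 to 55.4) over 3486 such genes. Gene length moved with this share. Its median was 52.0% for genes of up to 10 kb, 34.1% for 10 to 50 kb and 22.7% for over 50 kb. Genes of the same length class and decile of DMSO signal were therefore set beside each STAT or SOCS gene. Each such class includes the STAT or SOCS gene itself. For short genes of the highest decile, the class of Cish and Socs1 at 100% and Socs3 at 74.9%, the median was 79.1% (interquartile range 61.8 to 94.2, 228 genes). These shares count bases within the gene alone. Over whole DMSO peaks they were 83.1% for Cish, 60.9% for Socs1 and 71.6% for Socs3, and the class was not recomputed that way.

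For genes over 50 kb in the seventh decile the median was 17.5% (10.5 to 24.3, 191 genes), with Stat4 above this range at 25.2% and Stat5b below it at 9.47%. With peaks of a −log10 q of at least 5 alone, Stat4 stood at 16.5% and Stat5b at 0%, and the range was not recomputed. Stat3, at 17.4%, lay below the interquartile range of 19.0 to 37.6% of the 153 genes of its class. Stat6, at 13.2%, lay below the interquartile range of 23.1 to 46.3% of the 364 genes of its class. Stat4 and Stat5b had highest DMSO fold enrichments of 5.50 and 5.15 and DMSO peaks over 34.5 and 41.4 kb, with EPZ peaks over 8.69 and 3.92 kb of them. No replicate spread is known for either value.

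**Figure D5:**
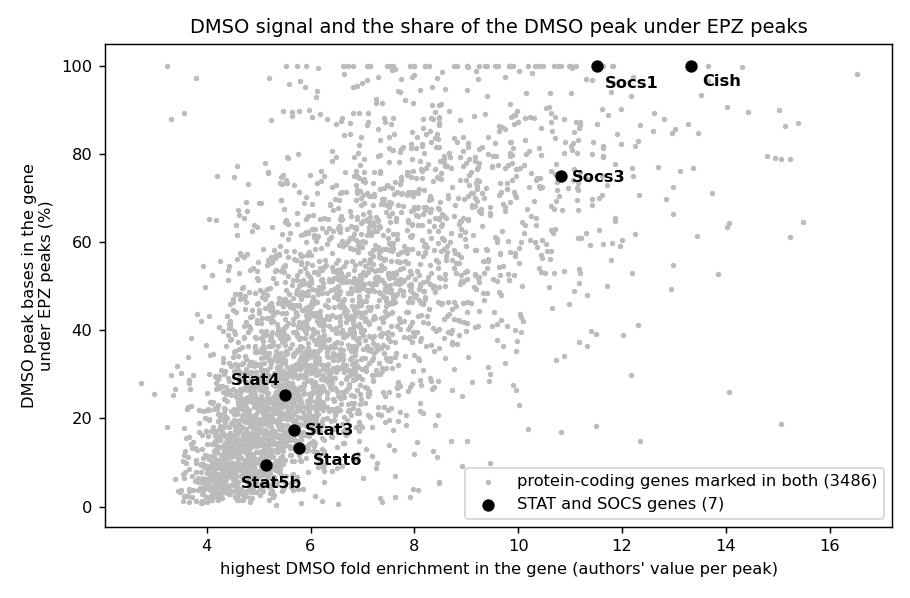
Percent of DMSO peak bases in a gene under EPZ peaks against the highest DMSO fold enrichment in the gene, for 3486 protein-coding genes marked in both lists (grey) and 7 STAT and SOCS genes (black). Cish, Socs1 and Socs3 lie at DMSO fold enrichments of 10.8 or more, and the 4 STAT genes lie between 5.15 and 5.77 at shares of 25.2% or less.

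The nearest genes on either side ranged from unmarked to more widely marked than the STAT or SOCS gene itself. Beside Cish, the kinase gene Mapkapk3 had 0.746 kb of EPZ peak and 18.5 kb of DMSO peaks, at up to 3.53 and 4.38, and Hemk1 had 0.457 and 3.83 kb. Pgs1, a phospholipid synthesis gene 16.0 kb from Socs3, had 9.92 kb of EPZ peak and 32.2 kb of DMSO peaks, more in both lists than Socs3, at up to 4.31 and 7.98. Nab2 overlaps the end of Stat6 by 70 bases and had a DMSO peak of 1.70 kb outside Stat6 and no EPZ peak. Nemp1, Clec16a and Tha1, the nearest genes beyond Stat6, Socs1 and Socs3 on 1 side, had DMSO peaks over 0.590, 1.89 and 0.595 kb and no EPZ peak. Ghdc beside Stat5b, Cavin1 beside Stat3, Lrp1 beside Stat6, and Il23a and Apon beside Stat2 had no peak in any list. No SGC peak lay within 1 Mb of any of the 9 genes, and the nearest was 1.67 Mb from Stat4.

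Lists of other genes in the pathway were set beside the STAT and SOCS genes. Of 58 such genes found in the annotation, 2 had an SGC peak, 40 an EPZ peak and 50 a DMSO peak. Of all protein-coding genes 0.142%, 15.9% and 34.5% had one, and 46.1% of genes marked in DMSO had an EPZ peak. The median share of DMSO peak bases under EPZ peaks was 49.2% over the 40, against 34.3% over all genes marked in both lists. The pathway lists were not matched to other genes by length or DMSO signal. Mx1, also listed, was not found in the annotation by that symbol. Among the JAK kinases, Jak1 and Jak3 had EPZ and DMSO peaks, Jak2 had DMSO peaks and Tyk2 none. Jak1 had 41.0 kb of EPZ peaks and 88.9 kb of DMSO peaks, at up to 5.71 in the EPZ list and 7.52 in the DMSO list. Of 19 cytokine receptor genes 14 had an EPZ peak and 18 a DMSO peak, all but Il9r. By DMSO fold enrichment Il4ra, the interleukin-4 receptor chain that signals through STAT6, was highest, with 24.6 kb of DMSO peak at 10.6. Its EPZ peak covered 12.2 kb. Ifngr2, an interferon-gamma receptor chain, was lowest at 3.42 in DMSO, with no EPZ peak.

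In the rest of the SOCS family, Socs2 and Socs4 had EPZ and DMSO peaks, Socs6 and Socs7 had DMSO peaks alone and Socs5 had none. The DMSO peak of Socs4, with 12297 of its 15736 bases in the gene, was shared with Wdhd1. EPZ peaks lay over 35.4% of the DMSO peak bases in Socs2 and 51.4% in Socs4, less than in Cish, Socs1 or Socs3. Socs2 and Socs4 are longer, at 33419 and 19183 bases, with lower DMSO fold enrichments of 6.86 and 6.01. The genes were not matched by length or DMSO signal for this comparison. Over all genes of 10 to 50 kb marked in both lists the median share was 34.1%. Socs2 was highest at 6.86 and Socs7 lowest at 3.11 in DMSO. Of 12 other inhibitors 8 had an EPZ peak and 11 a DMSO peak (15.9% and 34.5% of all protein-coding genes). Ptprc, which encodes the phosphatase CD45, was the 1 with an SGC peak, Pias2, Pias3 and Ptpn11 had DMSO peaks alone and Usp18 had none. Pias4 had the highest DMSO value, 14.1, through 671 bases of a peak of 20048 bases shared with Zbtb7a, and Pias3 the lowest, 3.17. Of 17 partners and targets of STATs 13 had EPZ and DMSO peaks (15.9% and 34.5% of all protein-coding genes). The median share of their DMSO peak bases under EPZ peaks was 71.4%, with 100% in Pim1, Pim2 and Myc. Over all genes marked in both lists the median was 34.3%, without matching for length or DMSO signal. Pim1, a survival kinase gene, also had an SGC peak, over 863 bases. By DMSO fold enrichment Ccnd3 was highest at 11.5, through a peak that also touched Bysl, and Irf9 lowest of those marked at 4.84, through a peak shared with Rnf31. The interferon-stimulated genes Irf7, Isg15 and Oas1a, and Prdm1, had no peak in any list.

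The genes whose pattern was nearest to each STAT or SOCS gene marked in both lists were found over 7563 genes marked in DMSO. The measure was the sum of the differences in percentile rank in DMSO peak bases, highest DMSO fold enrichment and share under EPZ peaks, which rest on 2 lists. They were Clec2d for Cish (sum 2.47), Gm44064 for Socs1 (2.86), Hspa8 for Socs3 (2.37), Chd8 for Stat3 (2.76), Eif2ak3 for Stat4 (1.03), Map4 for Stat5b (2.86) and Kif20a for Stat6 (5.31). Hspa8, a heat shock protein gene, had 3.02 kb of EPZ peak and 3.73 kb of DMSO peak, and Eif2ak3, a stress kinase gene, 8.51 and 33.7 kb.

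The DOT1L inhibitors were compared at the same labelled dose and day, as 1 pair. In the 9 genes SGC peaks covered 0 bases and EPZ peaks 28.0 kb. The SGC list as a whole covered 0.138 Mb and the EPZ list 18.1 Mb. Depth and background of the lists are unknown, and their part in this difference was not tested.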

How the data were processed

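H3K79me2 immunoprecipitates (6 libraries) and inputs (6 libraries) of CD8 T cells were sequenced, and 3 broad peak lists, 1 per treatment, were deposited. Per the submitters' processing notes, MACS2 2.2.7.1, Picard and BWA 0.7.17-r1188 were used, with mm10, GRCm38 and sacCer3 as builds. The sources used here do not give the use of inputs and yeast reads, the way replicates were joined or the thresholds of calling, and lists were treated as pooled. The deposited fold enrichment is the authors' ratio over background, and the deposited −log10 q is theirs too, both averaged per peak. The deposited score repeats the −log10 q and was not used. Weak marks go uncalled at low depth.

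Gene intervals came from RefSeq GRCm38.p6, and strands and starts from the RefSeq promoter table. Exons and introns were not analysed here. Overlaps, computed in Python 3.11.15 with pandas 2.3.3 and tested on simulated intervals, needed at least 1 base. Genes named were the 9, their neighbours, and from each pathway list the extremes of DMSO fold enrichment and the genes in states held by 3 or fewer. Results on some named genes are not reported here. The genes and lists were chosen with earlier results of these data known. With 1 list per treatment, values are descriptions. The alternatives were peaks of −log10 q of at least 5, at least 500 bases in the gene, peaks given to 1 gene, intervals extended by 5 kb, the part of the gene from its start to its middle, 50% overlap, joining within 1 kb, and bases of whole peaks.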

Additional observations from a re-analysis of the deposited data

How the results depend on the processing

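The counts of STAT and SOCS genes with a peak stayed within 1.5 times under all 8 alternatives, several of which could not change them by construction. Requiring a −log10 q of at least 5 in every list left 0 genes marked in SGC, 5 in EPZ and 7 in DMSO. Stat5b and Stat6 had no EPZ peak, and Stat2 and Stat5a no DMSO peak, at that threshold. It lowered the share of DMSO peak bases under EPZ peaks to 16.5% in Stat4 and 0% in Stat5b and Stat6. Requiring at least 500 bases in the gene left 8 genes marked in DMSO, all but Stat5a. Of the 13 DMSO peaks in these genes 7 were overlapped by an EPZ peak (26.9% of all DMSO peaks), and 3, those of Cish, Socs1 and Socs3, under a minimum cover of 50% of the DMSO peak (8.48% of all DMSO peaks). Those shares of all DMSO peaks were not matched to the peaks of these genes for fold enrichment or width. At a −log10 q of at least 5 these genes held 7 DMSO peaks, 5 of them overlapped, and 5 EPZ peaks. Counting whole DMSO peaks, in and outside the gene, moved the share under EPZ peaks to 60.9% for Socs1, since bases around the gene then count, and extending each gene by 5 kb moved that of Socs1 to 59.8%. No paired analysis was possible because each treatment has 1 pooled list, and for the same reason no replicate could be left out. Depth limits the calls in an unknown way, and the cause of the changes above was not tested except where stated.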
